A study of Chlamydomonas reinhardtii with 15 samples.

Results

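The transcripts described here had a lower signal after exposure of the green alga Chlamydomonas reinhardtii to DBMIB, while their signal after the other 3 chemicals of the study stayed near that of untreated cells. They were chosen from the deposited log2 array values by 3 conditions. The mean of the 3 DBMIB arrays lay at least 1.2 log2 units below the mean of the 3 control arrays. The mean differences for neutral red (NR), tert-butylhydroperoxide (tBOOH) and 2(E)-hexenal (Hexenal) each lay between -0.7 and 0.7, and the control mean was 6 or more. Of 16283 probes, each listed under 1 transcript number and called a transcript below, 130 met the rule (0.798%). All differences from control were therefore used in the choice, and their values are given as a description with no test.

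All cultures were the wild-type strain 4A+ in the 137c background, grown with acetate in light and split into subcultures. The groups were DBMIB (2 µM), NR (3 µM), tBOOH (100 µM) and Hexenal (0.3 mM), each for 2 h, and control with no chemical for the same time. Each group had 3 independent biological replicates per the labels, and 1 one-colour Agilent array of total RNA was made from each, 15 arrays in all. Each chemical was used at 1 dose and 1 time, so differences between chemicals cannot be told apart from differences between those doses.

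DBMIB is a synthetic quinone that binds the plastoquinol oxidation site of the cytochrome b6f complex, the protein complex that passes electrons from plastoquinol towards photosystem I. In light it keeps the plastoquinone pool reduced, and the redox state of that pool is a known signal for gene expression in chloroplasts and nuclei. Quinones can also react with thiols. NR is a dye that in light acts as a photosensitizer of singlet oxygen, tBOOH is an organic hydroperoxide, and 2(E)-hexenal is an unsaturated aldehyde that reacts with thiols and amines. The tables used here pair no transcript of this array with a gene symbol or a function, so the transcripts are named by locus tag where one was matched and otherwise by probe, and no roles are given.

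Deposited values were log2 signals, quantile-normalized so that every array has a median of 6.953. The share of probes with a signal well above background was 72.7% to 89.8% on the treated arrays, lowest on DBMIB replicate 2, and no saturated spot was found. Such flags were not used for the control arrays. The label "DBMIB only" means that the rule was met on this scale, not that the other chemicals had no effect. Centred on 6 spike-in features instead, every difference from control shifted by -0.73 for DBMIB, -0.22 for NR, -0.36 for tBOOH and -0.55 for Hexenal. On that scale 120 of the 130 transcripts were still within 0.7 of control under NR, 73 under tBOOH and 52 under Hexenal, the whole rule was met by 240 probes, and 30 of the 130 were among them. Without control replicate 1 the spike-in shifts were -0.56 for DBMIB, -0.04 for NR, -0.18 for tBOOH and -0.37 for Hexenal. With all control arrays kept, spike-in centring moved the median over all probes to -0.68 for DBMIB, -0.21 for NR, -0.27 for tBOOH and -0.42 for Hexenal. On the deposited scale these medians were 0.06, 0.01, 0.10 and 0.13 in the same order, so differences below are relative to the bulk of the array.

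Most transcripts that DBMIB lowered by 1.2 or more also lay below -0.7 under another chemical. With a DBMIB difference of -1.2 or less and a control mean of 6 or more there were 2512 probes, of which the 130 were 5.18%. Of the 2512, 1234 lay below -0.7 under all 3 other chemicals, 644 under 2 of them, 417 under 1 and 217 under none. Below -0.7 were 1417 (56.4%) under NR, 1959 (78.0%) under tBOOH and 2031 (80.9%) under Hexenal. Of all probes with a control mean of 6 or more, 54.0% lay below 0 under NR, 51.1% under tBOOH and 50.5% under Hexenal. The shares of those probes below -0.7 can be no larger. The same thresholds turned round for another chemical gave 12 probes lowered by NR only, 60 by tBOOH only and 16 by Hexenal only, and 63 probes were raised by DBMIB only. All counts in this paragraph share the control arrays, so a high control value lowers every difference of a probe at once. They are given side by side.

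Across the 130 transcripts the DBMIB minus control difference ran from -3.16 to -1.2 with a median of -1.57, which is 2.97 times lower. The difference was -2 or less for 22 transcripts, between -2 and -1.5 for 52 and above -1.5 for 56. In limma's model all 130 were called lower in DBMIB than in control, where 30.4% of all probes were; the rule fixed this. The median level of the group was 6.74 under DBMIB, 8.72 under NR, 8.26 under tBOOH, 8.19 under Hexenal and 8.49 in control, which sits at the percentile 47.4 of all probes under DBMIB and at 67.0 in control. RNA came from whole cultures, so fewer cells with a transcript and less transcript per cell cannot be told apart.

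The difference was present on each DBMIB array. The median distance of the 130 transcripts from their control means was -1.38, -1.63 and -1.77 on the 3 DBMIB arrays, and all 130 lay below the control mean on every one of them. It was 0.35, 0.14 and 0.18 on the NR arrays, -0.28, -0.23 and -0.27 on the tBOOH arrays, and -0.21, -0.21 and -0.27 on the Hexenal arrays. The 3 DBMIB arrays lay below all 3 control arrays for 129 of the 130 (30.5% of all probes) and below all 12 other arrays for 125 (8.02% of all probes). For 33 of them the gap to the lowest of those 12 arrays was 1 log2 unit or more (0.841% of all probes). Since the rule chose groups that lie apart, nothing is read from these counts. The median SD within a group was 0.285 for DBMIB, 0.178 for NR, 0.170 for tBOOH, 0.120 for Hexenal and 0.235 for control, against 0.264, 0.199, 0.204, 0.186 and 0.252 over all probes in the same order.

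**Figure D1:**
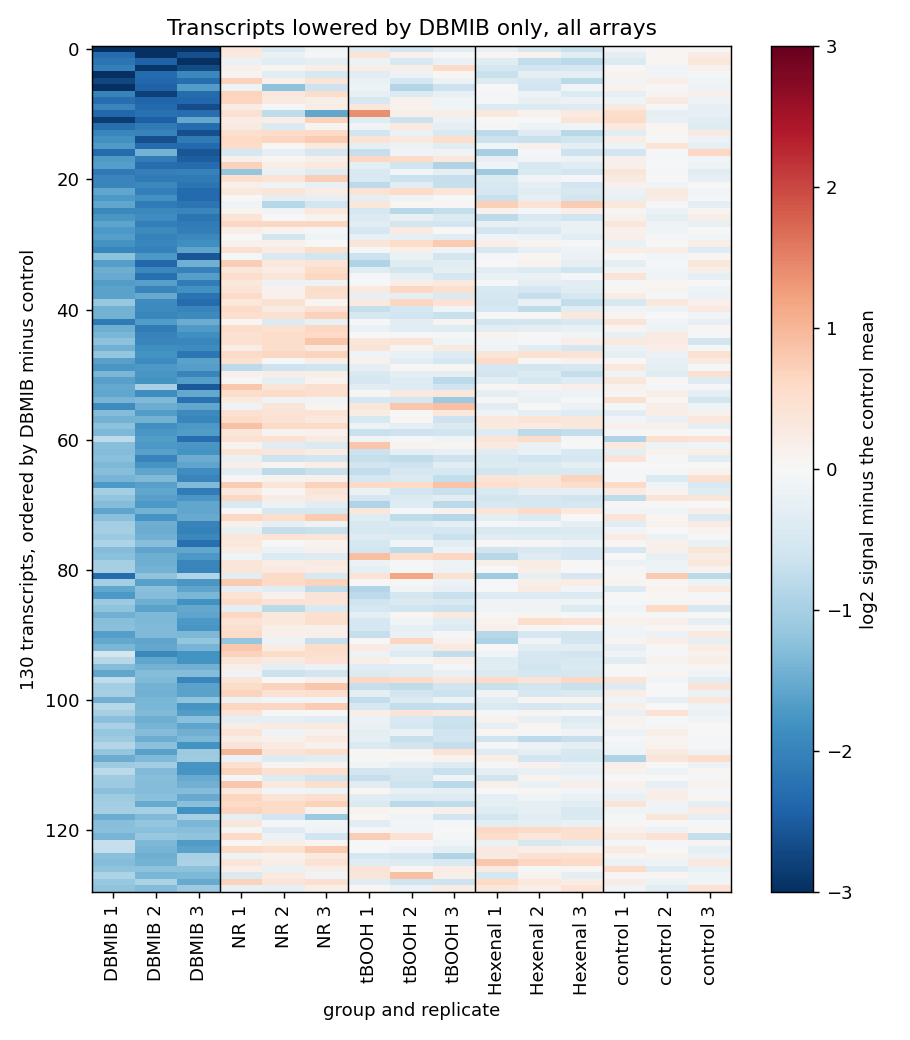
The 130 transcripts (vertical axis, largest fall at the top) on the 15 arrays (horizontal axis, DBMIB, NR, tBOOH, Hexenal and control), coloured by the log2 difference of each array from the control mean of that transcript, with colours capped at 3 either way. The 3 DBMIB arrays are low for all 130, and the array medians elsewhere lie between -0.28 and 0.35.

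The 12 largest falls under DBMIB lay between -3.16 and -2.27. The largest was probe specific_011397, with no locus tag. Its signal was 4.05, 4.03 and 4.12 on the DBMIB arrays, 7.57, 6.79 and 7.14 under NR, 6.86, 6.69 and 6.88 under tBOOH, 7.0, 6.75 and 6.56 under Hexenal, and 7.13, 7.29 and 7.26 in control. All 12 other arrays lay far above the DBMIB arrays, by at least 2.43, the widest such gap of the 130. On the deposited scale the means of 4.07 ± 0.05 under DBMIB and 7.23 ± 0.08 in control (SD, n = 3 each) make it 8.94 times lower. Of the 3 DBMIB arrays 2 were well above background. On log2 scanner signals, scaled per array as described below, these 3 lay at -4.98, -6.44 and -5.13, a far wider spread. All 3 were still below every array of the other chemicals, the lowest of which was at -2.95. The small SD and the fold thus hold for the deposited scale, and the size of the fall is less certain.

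CHLRE_10g437050v5, on chromosome 10, was the largest fall with a locus tag. It had 8.05, 7.15 and 7.74 under DBMIB, 10.65, 10.16 and 10.32 under NR, 10.74, 10.49 and 10.33 under tBOOH, 10.41, 10.47 and 10.02 under Hexenal, and 10.10, 10.39 and 10.60 in control. Levels under the other 3 chemicals thus covered the range of the control arrays, and the DBMIB arrays were all more than 1 unit lower. The mean was 7.64 ± 0.46 under DBMIB and 10.36 ± 0.25 in control, 6.58 times lower, with all 3 DBMIB arrays well above background.

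Probes specific_012551 and specific_010614 followed. The first had 6.03, 5.79 and 5.02 under DBMIB, 7.40 to 8.07 on the 9 arrays of the other chemicals, and 7.80, 8.28 and 8.55 in control. The second had 8.05, 7.19 and 7.42 under DBMIB, 9.53 to 10.68 on those 9 arrays, and 10.10, 10.00 and 10.23 in control. In both, the Hexenal arrays were the lowest of the other chemicals on average, at 7.58 ± 0.24 and 9.57 ± 0.04.

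A further 3 of the 12 had moderate control levels and were dim under DBMIB. CHLRE_12g536500v5 had 3.99, 4.87 and 5.22 under DBMIB and 7.28, 7.08 and 7.14 in control. CHLRE_17g731250v5 had 3.55, 3.92 and 3.98 under DBMIB and 6.20, 6.48 and 6.17 in control. CHLRE_03g184151v5 had 4.26, 4.13 and 4.19 under DBMIB and 6.42, 6.80 and 6.40 in control. Each of the 3 was well above background on 2 of 3 DBMIB arrays, so their falls of -2.47, -2.46 and -2.34 rest in part on dim spots.

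CHLRE_12g485150v5, on chromosome 12, had a high signal on every array. It had 11.63, 12.28 and 13.02 under DBMIB, 14.54, 13.47 and 14.08 under NR, 14.54, 13.82 and 14.05 under tBOOH, 14.68, 14.13 and 14.62 under Hexenal, and 14.81, 14.74 and 14.55 in control. The DBMIB arrays spread widely and still did not overlap any other array. Its mean was 12.31 ± 0.70 under DBMIB and 14.70 ± 0.13 in control, a difference of -2.39.

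The other 4 of the 12 also stood apart on the DBMIB arrays. CHLRE_06g276001v5 had 6.47, 5.68 and 6.17 under DBMIB and 8.24, 8.56 and 8.64 in control, and probe specific_012118 had 6.86, 6.49 and 6.16 under DBMIB and 9.11, 8.80 and 8.58 in control. Probe specific_007393 had 6.89, 7.29 and 8.21 under DBMIB and 10.31, 9.52 and 9.39 in control. Probe specific_011818 was tight under DBMIB, with 8.66, 8.78 and 8.73, but spread widely under NR, with 11.45, 10.23 and 9.43, and had 11.52, 10.73 and 10.76 in control. Its NR SD of 1.02 was the highest of the 130 in that group, so its place within 0.7 of control under NR (difference -0.63) is loosely set.

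**Figure D2:**
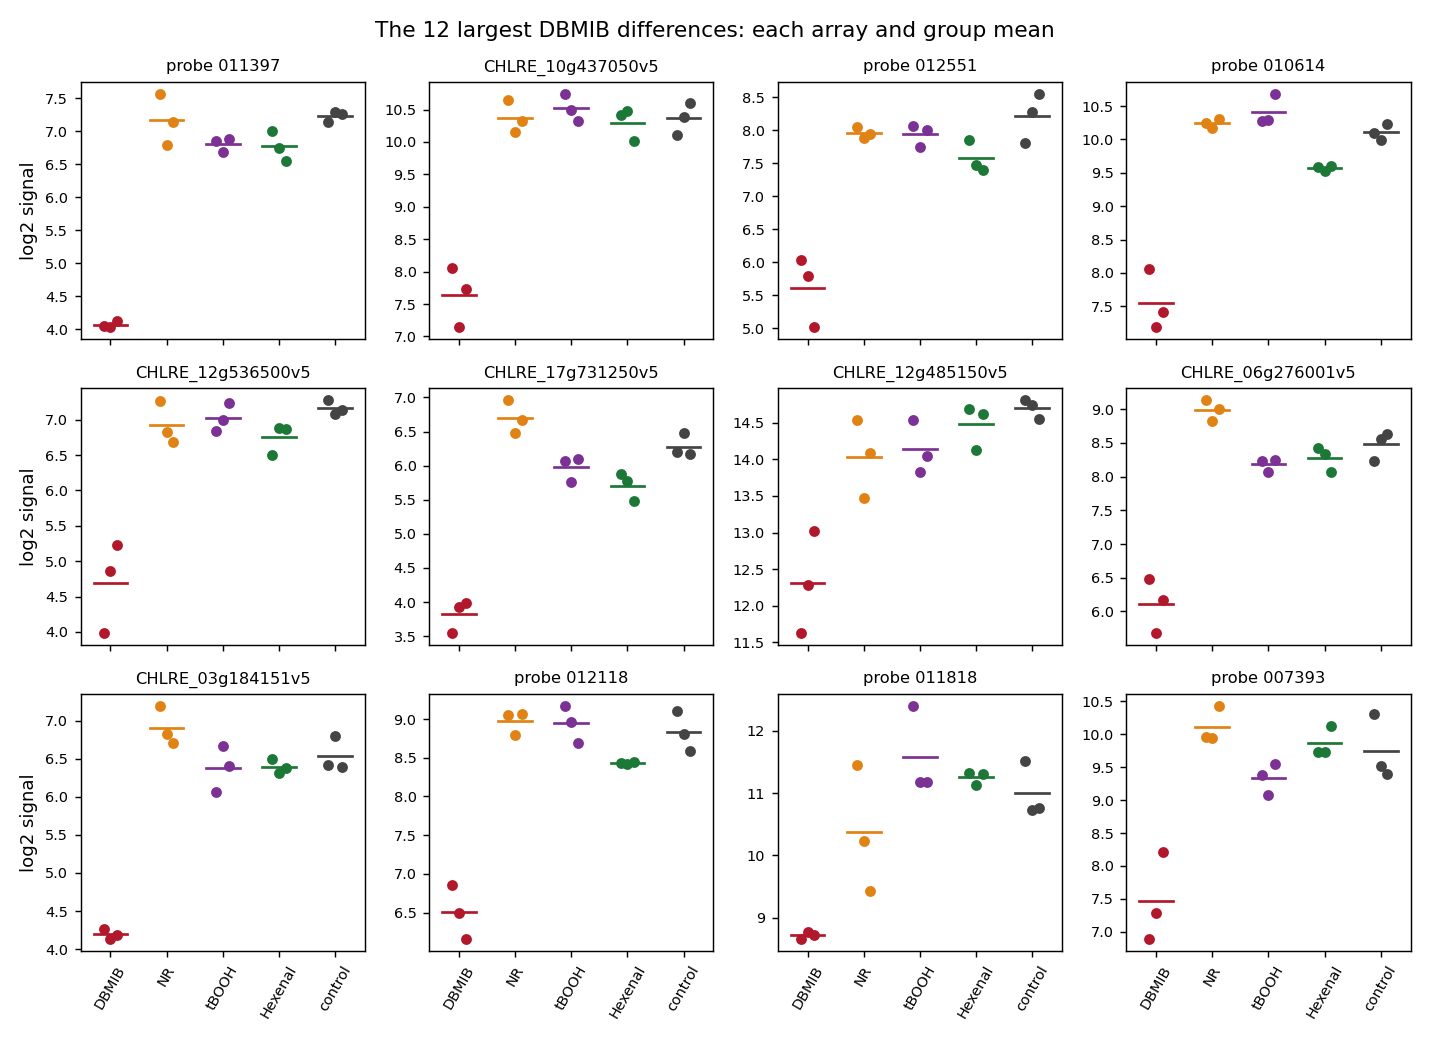
Deposited log2 signal (vertical axis) of the 12 transcripts with the largest DBMIB falls on each array, as points by group (horizontal axis, DBMIB, NR, tBOOH, Hexenal and control), with the group mean as a bar. The DBMIB points lie below every other point in each panel, and specific_011818 shows the wide NR group.

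The fall is described here by control signal, over the signals that the rule admits, 6 and above. Signals of different probes do not rank transcripts by abundance. In control, 52 of the 130 (40.0%) lay between 6 and 8, 46 (35.4%) between 8 and 10, 22 (16.9%) between 10 and 12, and 10 (7.69%) at 12 or more. Of all probes with a control mean of 6 or more, 38.4%, 28.8%, 18.5% and 14.3% lay in these classes, in the same order. The median DBMIB difference of the 130 by class was -1.57, -1.65, -1.48 and -1.58. The rule cut this difference at the same threshold in every class, which can draw the class medians together. Class medians of other probes are not given, so nothing is read from how close these lie. The highest control signal was that of CHLRE_14g611250v5, on chromosome 14, with 14.78, 14.38 and 14.46 under DBMIB, 16.50, 16.25 and 16.27 under NR, 15.47, 15.51 and 15.54 under tBOOH, 15.75, 15.34 and 15.40 under Hexenal, and 16.07, 16.18 and 16.15 in control. Its DBMIB arrays were lowest, its tBOOH and Hexenal arrays lay between, and its NR arrays lay above control; the mean was 14.54 ± 0.21 under DBMIB and 16.13 ± 0.06 in control.

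Probe specific_003713 had 13.83, 13.89 and 13.25 under DBMIB, 15.27, 15.34 and 15.36 under NR, 14.69, 14.79 and 14.49 under tBOOH, 15.61, 15.58 and 15.90 under Hexenal, and 15.16, 14.80 and 15.71 in control. Here tBOOH lay on the lower side and Hexenal on the upper side of control. CHLRE_06g257450v5 had 12.54, 12.15 and 11.93 under DBMIB and 13.49, 14.04 and 13.96 in control (difference -1.62), and CHLRE_09g416350v5 had 12.37, 12.09 and 12.12 under DBMIB and 13.18, 13.82 and 14.03 in control (difference -1.48). With CHLRE_12g485150v5 and CHLRE_02g076350v5, described below with its neighbour, these are the 6 with the highest control signal.

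Most of the 130 stayed above background. On the DBMIB arrays 114 were well above background on all 3, 14 on 2 and 2 on 1 (CHLRE_07g354301v5 and CHLRE_06g273200v5), and none on 0. The share on all 3 DBMIB arrays was 72.6% of all probes and 95.0% of probes with a control mean of 6 or more. On replicates 1, 2 and 3 the numbers were 130, 114 and 128, and replicate 2 had the lowest share of all probes above background (72.7%, against 88.7% and 84.9%). All 130 were well above background on each of the 9 arrays of NR, tBOOH and Hexenal. Of all probes, 86.7% were so on all 3 NR arrays, 80.5% on the tBOOH and 79.6% on the Hexenal arrays. Of probes with a control mean of 6 or more the shares were 99.7%, 97.8% and 97.1%, in the same order. For the 16 transcripts dim on some DBMIB array the size of the fall is less certain.

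Within the band that the rule set, the 130 lay more often above control under NR and more often below it under tBOOH and Hexenal. The median difference from control was 0.20 for NR, -0.29 for tBOOH and -0.23 for Hexenal, against -0.08, -0.03 and -0.01 over the 10008 probes with a control mean of 6 or more. Under NR 90 lay above control and 40 below. Under tBOOH and under Hexenal 36 lay above and 94 below in each case. The most frequent pattern, in 45 transcripts, was above control with NR and below it with tBOOH and Hexenal; 26 were below with all 3 and 7 above with all 3. The 3 medians share the control arrays. The rule used these differences, while the 10008 probes were cut neither by the band nor by the DBMIB fall. These medians and counts are therefore a description. Against control, limma called 26 higher in NR (23.7% of all probes) and 4 lower (21.3%), 7 higher in tBOOH (31.9%) and 33 lower (28.2%), and 4 higher in Hexenal (31.6%) and 30 lower (25.7%); the rule limits these differences, so nothing is read from these counts. On the spike-in scale the medians were -0.01 for NR, -0.65 for tBOOH and -0.77 for Hexenal, so the side of control on which NR lies changes with the scaling.

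**Figure D3:**
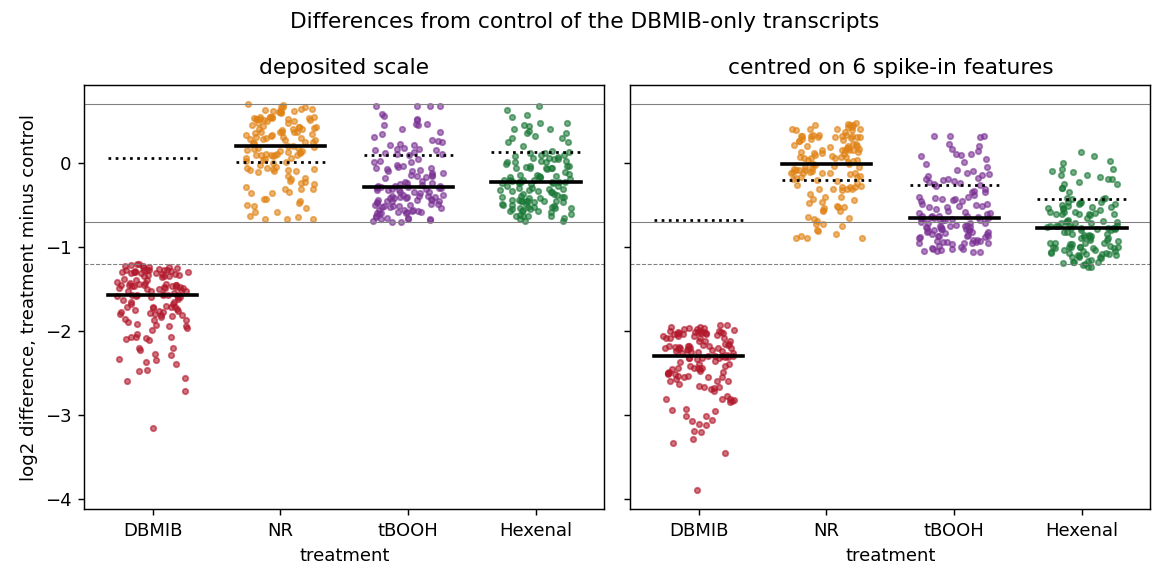
Difference from the control mean (vertical axis, log2) of the 130 transcripts under DBMIB, NR, tBOOH and Hexenal, 1 point per transcript, on the deposited scale (left) and centred on 6 spike-in features (right); solid bars are their medians, dotted bars the medians of all probes, and grey lines mark 0.7, -0.7 and, dashed, -1.2. On the left DBMIB runs from -3.16 to -1.2 and the other 3 stay within 0.7 by the rule, and on the right the medians are -2.30 for DBMIB, -0.01 for NR, -0.65 for tBOOH and -0.77 for Hexenal.

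For 13 of the 130 all 3 other chemicals lay within 0.3 of control. CHLRE_10g437050v5, described above, is one of them. Probe specific_007670 had 4.04, 4.18 and 3.99 under DBMIB, 6.57, 5.86 and 6.38 under NR, 6.19, 6.60 and 6.02 under tBOOH, 6.34, 6.16 and 6.19 under Hexenal, and 6.60, 6.35 and 5.93 in control. The 12 arrays without DBMIB overlap fully there. CHLRE_13g571600v5 had 8.32, 7.87 and 7.36 under DBMIB, 9.15 to 9.70 on the 9 arrays of the other chemicals, and 9.14, 9.17 and 9.66 in control. In CHLRE_09g404100v5 the DBMIB arrays had 8.20, 7.89 and 7.54, those 9 arrays 9.14 to 9.59, and the control arrays 8.98, 9.65 and 9.0. The 13 were picked by their values and are shown as examples.

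How the other 3 chemicals differed among themselves does not involve the control arrays. The rule used the same arrays, however: it keeps each such difference within 1.4 on the deposited scale, and choosing by the DBMIB fall and cutting at -0.7 can shape its direction. Counts and differences are therefore a description, with no p-value given for a transcript. They come from scanner signals of the arrays with a chemical, 12 in all, as log2 processed signal minus the 75th percentile of each array, with limma and Benjamini-Hochberg adjustment over all 16283 probes. Of the 130, 53 were called higher and 8 lower in NR than in tBOOH, where 24.2% of all probes were higher and 23.4% lower. Against Hexenal 56 were higher and 5 lower in NR, where 27.2% of all probes were higher and 16.6% lower. Between tBOOH and Hexenal 21 were higher and 11 lower in tBOOH, where 27.0% of all probes were higher and 19.2% lower.

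On the deposited scale more of the 130 were again called higher than lower in NR, with 59 higher and 8 lower against tBOOH (24.2% and 25.3% of all probes) and 50 higher and 3 lower against Hexenal (22.4% and 22.0%). For tBOOH against Hexenal it gave 18 higher and 14 lower (23.4% and 23.0%). The median difference was 0.42 for NR minus tBOOH on scanner signals and 0.43 on the deposited scale, and 0.44 and 0.37 for NR minus Hexenal. For tBOOH minus Hexenal it was 0.05 and -0.06, so the sign turns with the scale.

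The 130 were set beside other probes that DBMIB lowered and other probes that stayed near control under the 3 other chemicals. Of the 2382 other probes with a DBMIB difference of -1.2 or less and a control mean of 6 or more, 57.4% were higher and 9.49% lower in NR than in tBOOH. Of the 2391 other probes with a control mean of 6 or more that lay within 0.7 under NR, tBOOH and Hexenal, 7.24% were higher and 21.4% lower. Against Hexenal these shares were 70.2% and 3.65% for the other lowered probes, and 9.58% and 9.75% for the others near control. Among the 63 probes raised by DBMIB only, 9.52% were higher and 22.2% lower in NR than in tBOOH. For the 130 the shares were 40.8% higher and 6.15% lower against tBOOH, and 43.1% higher and 3.85% lower against Hexenal. The other lowered probes were not held to the band, so larger differences were open to them. The shares called higher in NR lie between those of the 2 larger sets in both comparisons. This was not so for tBOOH against Hexenal, where 16.15% of the 130 were higher in tBOOH. There the share was 39.55% for the other lowered probes and 16.19% for the others near control. The share called lower in NR lies below both sets against tBOOH and between them against Hexenal. The difference between the sets was not tested.

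**Figure D4:**
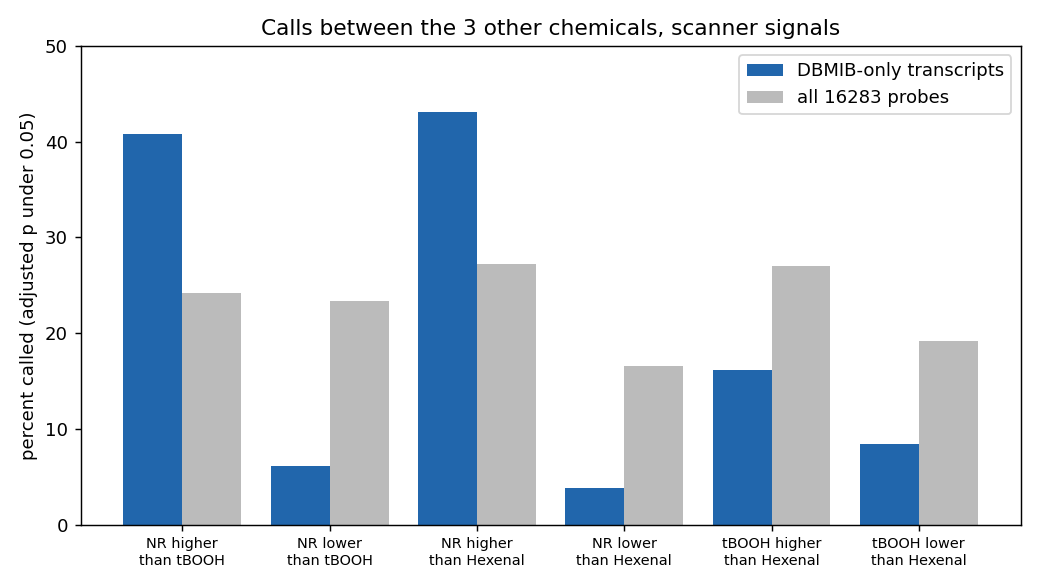
Share of probes called (vertical axis, percent) in each direction for NR against tBOOH, NR against Hexenal and tBOOH against Hexenal on scanner signals, for the 130 transcripts (blue) and all 16283 probes (grey). NR is called higher than tBOOH for 40.8% of the 130 and lower for 6.15%, against 24.2% and 23.4% of all probes.

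Single transcripts showed where the other chemicals parted. CHLRE_13g566050v5, on chromosome 13, had 2.66, 2.81 and 2.90 under NR against 1.5, 1.38 and 1.61 under tBOOH on the scanner scale, and 1.47, 1.58 and 1.44 under Hexenal. NR was higher than tBOOH by 1.29 (SE 0.165) and than Hexenal by 1.30 (SE 0.165), with no overlap of arrays. Probe specific_007431 had 1.76, 1.76 and 1.86 under NR against 0.67, 0.37 and 0.40 under tBOOH, a difference of 1.31 (SE 0.209). CHLRE_02g118500v5 had 2.52, 2.43 and 2.63 under NR against 1.59, 1.14 and 1.07 under tBOOH, a difference of 1.26. In all 3 the lowest NR array lay above the highest tBOOH array.

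Other transcripts had other orders. Probe specific_009929 had 1.99, 1.76 and 1.71 under NR against 3.16, 2.66 and 2.88 under tBOOH, a difference of -1.08 (SE 0.195), and 1.24, 1.79 and 1.57 under Hexenal, which tBOOH exceeded by 1.37 (SE 0.195). It was thus highest under tBOOH among the 3. Probe specific_012236 was lowest under Hexenal among the 3, with -0.99, -1.03 and -0.92, against which NR was higher by 1.40 and tBOOH by 1.18 (SE 0.200 each). For specific_003713 the tBOOH arrays had 5.58, 5.78 and 5.39 against 6.45, 6.60 and 6.80 under Hexenal, a difference of -1.03 (SE 0.196). In CHLRE_12g494350v5 tBOOH was likewise below Hexenal, with a difference of -1.01. These transcripts were chosen from the largest differences of each pair in each direction.

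Set against each other chemical on scanner signals, DBMIB was lower for all 130. The median difference was -1.79 from NR, -1.42 from tBOOH and -1.34 from Hexenal, and -1.80, -1.39 and -1.45 on the deposited scale. Calls numbered 130 against NR (28.1% of all probes lower), 130 against tBOOH (25.1%) and 125 against Hexenal (17.0%). The rule fixes these directions, so they are given as a description.

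Of the 130 probes 127 are of the array's specific class and 3 of its cross-hybridising class, which may read related transcripts; that class holds 1040 of the 16283. Each had 1 to 3 spots on the array, with a median of 3. A locus tag was matched for 66 of the 130 (50.8%), all different loci, against 42.6% of all probes. The 66 lie on 16 chromosomes, with 8 on chromosome 3, 7 on chromosome 6 and 6 each on chromosomes 2, 12, 13, 16 and 17. Relative to the tagged probes of a chromosome the share was 2.13% on chromosome 13 (6 of 282) and 0.387% on chromosome 1 (2 of 517), against 0.951% over all tagged probes, and no member lay among the 227 on chromosome 8.

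Locus tags that follow each other in the annotation were found for 2 pairs. CHLRE_02g076350v5 and CHLRE_02g076400v5 are adjacent on chromosome 2 and differ widely in level. The first had 13.27, 12.67 and 12.79 under DBMIB, 15.38, 15.07 and 15.07 under NR, 14.35, 14.23 and 14.07 under tBOOH, 14.79, 14.75 and 14.85 under Hexenal, and 14.66, 14.64 and 14.21 in control. The second had 5.67, 5.70 and 5.45 under DBMIB, 7.80, 7.51 and 7.42 under NR, 6.86, 7.29 and 6.96 under tBOOH, 7.16, 7.38 and 7.08 under Hexenal, and 7.78, 7.53 and 7.62 in control. Their DBMIB differences were -1.59 and -2.04. The DBMIB arrays were the lowest in both, as the rule demands of their mean.

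CHLRE_03g203800v5 and CHLRE_03g203750v5 are adjacent on chromosome 3. The first had 7.29, 7.37 and 7.15 under DBMIB, 8.44 to 9.35 on the 9 arrays of the other chemicals, and 8.76, 8.68 and 8.73 in control. The second had 7.18, 7.01 and 7.16 under DBMIB, 8.02 to 8.90 on those 9 arrays, and 9.13, 8.85 and 8.42 in control. The differences of -1.45 and -1.68 are close to the median of the 130. Within 10 loci of each other were also CHLRE_13g565850v5 and CHLRE_13g566050v5, 4 loci apart, and CHLRE_06g257450v5 and CHLRE_06g257850v5, 10 apart.

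The pair on chromosome 13 had the same highest and the same lowest chemical. CHLRE_13g565850v5 had 11.09, 10.62 and 10.90 under DBMIB, 12.73, 12.75 and 12.83 under NR, 11.71, 11.34 and 11.37 under tBOOH, 11.86, 11.84 and 11.83 under Hexenal, and 12.53, 12.03 and 11.87 in control. CHLRE_13g566050v5 had 10.35, 9.97 and 9.80 under DBMIB, 11.95, 12.09 and 12.23 under NR, 10.71, 10.63 and 10.84 under tBOOH, 10.72, 10.83 and 10.73 under Hexenal, and 11.01, 11.39 and 11.77 in control. In both NR was highest and DBMIB lowest, and the tBOOH and Hexenal arrays lay below every control array.

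The neighbouring loci of the 66 were measured in part. For 44 of the 66 loci an adjacent locus was measured, by 61 probes, of which 4 are members themselves. The median DBMIB difference of the 61 was -0.01 with a range from -3.46 to 2.06, against -0.05 over all tagged probes. A difference of -1.2 or less was found for 16 of them (26.2%, against 23.0% of tagged probes), and the 4 members are among these 16. At 1.2 or more were 5 (8.20%, against 15.8%). Neither difference was tested. CHLRE_11g468600v5 lay 2.06 above control under DBMIB beside CHLRE_11g468550v5, which lay at -1.74. Next to CHLRE_10g437050v5, CHLRE_10g437000v5 had differences of -2.74 under DBMIB, -3.07 under NR, -3.81 under tBOOH and -3.25 under Hexenal. Both neighbours of CHLRE_12g536500v5, CHLRE_12g536450v5 and CHLRE_12g536550v5, were at -1.85 and -2.33 under DBMIB and also lower under the other chemicals, at -1.58 and -2.41 under NR, -1.35 and -2.87 under tBOOH and -2.42 and -3.73 under Hexenal.

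**Figure D5:**
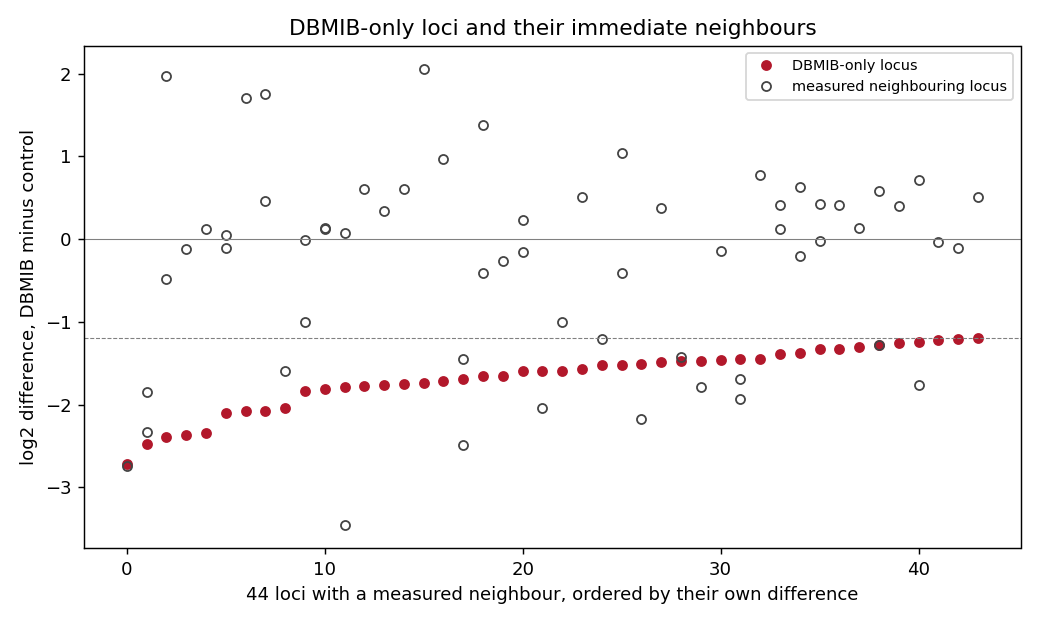
DBMIB minus control difference (vertical axis, log2) of the 44 loci with a measured adjacent locus (filled points, ordered along the horizontal axis by their own difference) and of those neighbours (open points), with a dashed line at -1.2. The 61 neighbour probes scatter from -3.46 to 2.06 around a median of -0.01, and 16 lie at or below the line.

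For 1 locus the array holds more than 1 probe. CHLRE_13g573650v5, with 5.00, 4.79 and 5.02 under DBMIB and 6.36, 6.26 and 6.17 in control, entered by 1 probe with a difference of -1.33 and 2 of 3 DBMIB arrays above background. Its 2 other probes, specific_000302 and specific_015189, were also lower under DBMIB, at -2.42 and -1.95, but at -1.69 and -2.02 under tBOOH, so they miss the rule. Probe specific_000302 also misses it by its control mean of 5.29, and its mean under DBMIB was low, at 2.87. The probe in the rule differed by less under tBOOH, with 6.09, 5.80 and 5.62. The 3 probes thus disagree on whether this locus was lowered by DBMIB only.

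The thresholds cut through a continuous range. Just inside lay CHLRE_13g576050v5 at -1.2, with 10.74, 10.64 and 10.86 under DBMIB and 11.85, 11.61 and 12.38 in control, then CHLRE_14g618200v5 at -1.201 and CHLRE_16g665950v5 at -1.22. Just outside lay probes specific_009697 at -1.197, specific_009119 at -1.190 and specific_007320 at -1.187. Within 0.1 of the DBMIB threshold were 21 of the 130 inside and 31 further probes outside that met every other condition. One transcript, probe specific_012950, overlapped control, with 7.44, 6.54 and 5.93 under DBMIB and 7.30, 8.71 and 8.67 in control. Without control replicate 1 the rule was met by 128 probes, 99 of the 130 among them, and over the 15 ways to leave out 1 array 59 of the 130 met it each time.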

How the data were processed

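RNA was measured on 15 custom 1-colour Agilent arrays. The authors deposited log2 values of all 15 arrays. Sorted over all features, their columns are equal within 0.01 at each rank, so they were quantile-normalized. How spots were combined was read from the values, not from a stated method. For the 12 treated arrays, scanner tables with the processed signal intensity per spot, on a linear scale, were also deposited; the labels name no scanner software version. Only control features were left out, and no filter on dim probes was used.

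Groups were compared with limma 3.58.1 in R 4.3.3 (lmFit, eBayes), against control on the deposited log2 values over 5 groups, and between chemicals on log2 processed signal minus the 75th percentile of the array over 4 groups. Spots the scanner marked as non-uniform or population outliers were left out there. Calls needed a Benjamini-Hochberg adjusted p under 0.05, two-sided, over 16283 probes. Well above background means that the scanner marked a share of 0.5 or more of the spots of a probe so. The model was tested on simulated data. Over all probes, deviations of same-numbered arrays from their group means were correlated (20 of 30 correlations above 0.1, range -0.11 to 0.27). They were above 0.1 for every number between DBMIB and tBOOH, DBMIB and Hexenal, tBOOH and Hexenal, and NR and control, but not for the other pairs of groups. Correlations of this size do not settle whether the replicate numbers pair the samples, so fits with the number as a block were also run. The number of arrays limits the precision.

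Transcript numbers below 200000 were matched to older locus tags of a RefSeq table (assembly Chlamydomonas_reinhardtii_v5.5), a later build than that of the array, so no coordinates are given; some matches may be wrong. The planned gene lists, roles and promoter motifs were not used, since the tables pair these transcripts with no names or sequences.

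The members and lists were chosen with earlier results of these data known. Named were the 12 largest DBMIB falls, the 6 highest control means, members at neighbouring loci, the 3 probes nearest the DBMIB threshold on either side, and the largest differences between the other chemicals; the examples within 0.3 of control, and single neighbours and probes that overlap, were chosen after their values were seen. Alternatives covered scaling, background correction, filters, arrays left out and the replicate number.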

Additional observations from a re-analysis of the deposited data

How the results depend on the processing

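The scaling moved the results most. Centred on 6 spike-in features, the rule was met by 240 probes, 30 of the 130 among them; the median DBMIB difference of the 130 was -2.30, and 8175 probes were called lower in DBMIB than in control, against 4950. Leaving out 1 array at a time, the rule was met by 120 to 153 probes, the median difference lay between -1.71 and -1.48, and 129 to 130 of the 130 and 4653 to 4944 of all probes were called lower. Calls among the 130 then ranged over 128 to 130 for DBMIB against NR, 125 to 130 against tBOOH and 120 to 127 against Hexenal, and over 48 to 67 for NR against tBOOH, 49 to 70 for NR against Hexenal and 23 to 37 for tBOOH against Hexenal. With the replicate number as a block (the check of the pairing is given with the processing), 130 of the 130 and 5078 of all probes were called lower, and the calls between NR, tBOOH and Hexenal were 66, 64 and 36, against 61, 61 and 32 without it. With normexp background correction of the median signals they were 71, 62 and 39. Medians over arrays in place of means gave 129 probes by the rule, 102 of the 130 among them. The median NR minus control difference, 0.20 on the deposited scale, was -0.01 with spike-in centring, and the median of tBOOH minus Hexenal was 0.05 on scanner signals and -0.06 on the deposited scale. Slide as a block was not run, since no slide is named. Of the 130, 16 were dim on some DBMIB array, which limits the size of their fall.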
